A study of Bos taurus with 16 samples.

Results

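CYP17A1, CYB5A and POR are the 3 genes described here: an androgen-forming enzyme of theca cells and its electron partners. They were taken by gene symbol from the platform annotation. No measured value entered that rule, but earlier results of these data were known when it was set. Each was represented by exactly 1 probe set, so they make up 3 probe sets among 24016 tested, or 3 genes among 9155 named.

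CYP17A1 is a cytochrome P450 of the endoplasmic reticulum that carries out a hydroxylase step and a lyase step, and the lyase step opens the route from C21 steroids to androgens. POR, NADPH-cytochrome P450 oxidoreductase, is a flavoprotein that passes electrons from NADPH to CYP17A1 and to the other microsomal P450 enzymes. CYB5A, the microsomal cytochrome b5, favours the lyase step of CYP17A1 and also serves lipid desaturases. In the follicle, theca interna cells make the androgen that granulosa cells turn into oestrogen, and luteinising hormone (LH) is the classical stimulus for CYP17A1 there.

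The cells were primary theca interna cells of adult cattle ovaries from a slaughterhouse, pooled from about 50 follicles of 4 to 6 mm and grown without serum for 6 days. During days 3 to 6 the control cultures had neither hormone. LH cultures had LH at 160 pg/ml, BMP6 cultures had bone morphogenetic protein 6 at 10 ng/ml, and LH+BMP6 cultures had both at those doses. Each group held 4 arrays, 16 in all, and the work was repeated on 4 batches of ovaries. Values are log2 signals of Affymetrix bovine GeneChip arrays. Levels are given as mean ± SD of 4 arrays and changes as log2 difference ± SE with 4 arrays in each group. A change is called where the limma p, adjusted by Benjamini-Hochberg over 24016 probe sets, is under 0.05. The number of arrays limits the precision. Pooled cells leave out the spread between animals, and in such bulk samples fewer cells of a type and less RNA per cell cannot be told apart.

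On 3 arrays (control replicates 1 and 3 and LH replicate 1) the 9 hybridisation-control probe sets averaged 8.66 to 8.71, against 9.84 to 10.17 on the 13 others; they are called the dim-control arrays here. In the control cultures INSL3, a theca peptide hormone, stood at 14.08 ± 0.19, while FSHR, the granulosa receptor for follicle-stimulating hormone, was at 3.50 ± 0.19 and the oestrogen-forming enzyme CYP19A1 at 4.49 ± 0.12. Other genes of the granulosa list had higher signals there, with the inhibin subunits INHA at 10.56 ± 0.52 and INHBA at 8.72 ± 0.33 and the oestradiol-forming enzyme HSD17B1 at 6.33 ± 0.88. Markers of other cell types were followed beside CYP17A1. The mean log2 signal of 7 measured leukocyte markers of 8 ran from 6.73 to 6.82 in control, 6.48 to 6.92 with LH, 6.82 to 7.40 with BMP6 and 7.08 to 7.36 with LH+BMP6. For 8 of 8 fibroblast and pericyte markers the ranges were 9.65 to 10.07, 9.67 to 10.11, 9.94 to 10.25 and 9.93 to 10.18. Endothelial markers (6 of 7) ran from 5.83 to 6.46, 6.07 to 6.51, 5.73 to 6.16 and 5.71 to 6.14, and granulosa markers (8 of 9) from 5.84 to 6.03, 5.57 to 6.04, 5.43 to 5.58 and 5.51 to 5.62. The granulosa mean joins unlike genes, since with BMP6 INHA stood at 6.43 ± 0.30 and CDH2, N-cadherin, at 6.34 ± 0.44, against 4.67 ± 0.44 for CDH2 in control. The leukocyte mean does so too. In control and with BMP6, CD14 stood at 6.04 ± 0.36 and 7.16 ± 0.58, and PTPRC at 8.18 ± 0.09 and 8.90 ± 0.39. CD3E gave 7.67 ± 0.10 and 8.24 ± 0.36, and CD68 7.47 ± 0.05 and 7.67 ± 0.32. AIF1 gave 6.53 ± 0.12 and 6.46 ± 0.25, CSF1R 5.85 ± 0.22 and 5.88 ± 0.19, and TYROBP 5.83 ± 0.10 and 5.94 ± 0.28. The 6 theca markers, CYP17A1 among them, ran from 9.86 to 10.41, 10.39 to 11.67, 7.14 to 7.51 and 7.10 to 7.95. The 3′ minus 5′ signal of actin, a sign of RNA integrity, was 1.69 to 2.49 on the 8 arrays without BMP6 and 1.39 to 2.21 on the 8 with it. That of GAPDH was 0.29 to 0.41 in control, 0.15 to 0.41 with LH, 0.18 to 0.27 with BMP6 and 0.11 to 0.16 with LH+BMP6. The part of these shifts in the changes below was not tested.

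The CYP17A1 transcript was low on all 8 arrays with BMP6 and higher on all 8 without it. In control cultures its log2 signal was 8.56, 7.03, 6.59 and 7.35 in replicates 1 to 4. With LH it was 10.85, 7.55, 8.30 and 8.05. These groups overlapped, and LH replicate 1 stood far above the other LH arrays. With BMP6 the signal was 4.34, 4.84, 4.89 and 4.26, and with LH+BMP6 it was 4.46, 4.61, 4.78 and 4.32. The last 2 groups occupied the same narrow range, below every array without BMP6.

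**Figure D1:**
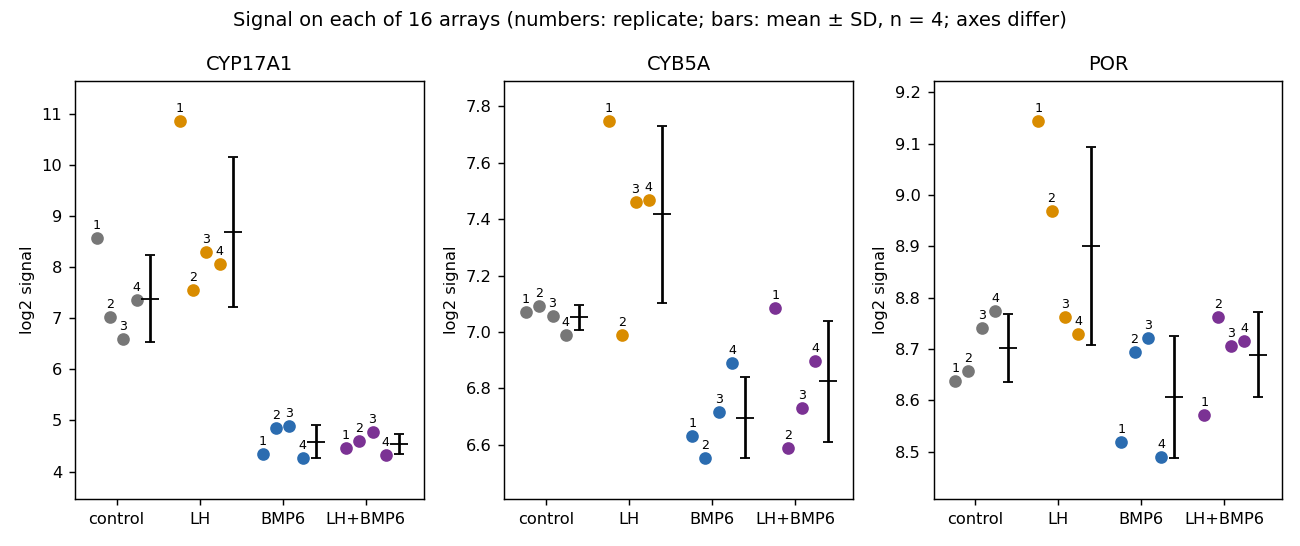
Log2 signal (y axis, a separate range for each gene) of CYP17A1, CYB5A and POR on each of the 16 arrays by group (x axis); points are arrays with their replicate number, and bars are mean ± SD of 4 arrays. CYP17A1 lies between 4.26 and 4.89 on the arrays with BMP6 and between 6.59 and 10.85 on those without, whereas the POR groups lie close together.

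In order of level, CYP17A1 stood at 8.69 ± 1.47 with LH, 7.38 ± 0.85 in control, 4.58 ± 0.33 with BMP6 and 4.54 ± 0.20 with LH+BMP6. The spread between replicates narrowed with the level, from a range of 3.30 with LH to 0.46 with LH+BMP6. On a single array, CYP17A1 was brighter than 56.0 to 82.7% of probe sets in control and 70.3 to 97.0% with LH. With BMP6 it was brighter than 23.0 to 32.6%, and with LH+BMP6 than 23.9 to 31.4%. Those levels lay near the lower quartile of the arrays, at 4.31 to 4.43, and no background level was estimated, so the folds below are fitted estimates on the RMA scale.

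BMP6 alone lowered CYP17A1 by 6.96-fold (95% interval 3.25 to 14.9), a log2 change of -2.80 ± 0.52 (limma adjusted p = 0.00115). The lowest control array was 1.70 above the highest BMP6 array. Between arrays of the same number the differences were -4.22, -2.19, -1.70 and -3.09, so the size varied widely while the direction held in 4 of 4. CYP17A1 was the 1 member of 3 called in this comparison, in which 18.1% of all probe sets were called and 9.95% were called lower. Leaving out the dim-control arrays gave -2.61 (adjusted p = 6.34e-06).

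Against LH, the fall of CYP17A1 with LH+BMP6 was 17.7-fold (8.28 to 38.0), or -4.15 ± 0.52 (adjusted p = 3.37e-05), and the groups were 2.77 apart. LH replicate 1 carried part of this size, since the same-number differences were -6.39, -2.95, -3.52 and -3.73. Without that array the change was -3.43 (adjusted p = 5.28e-06). In this comparison 20.3% of probe sets were called and 10.3% were called lower. LH+BMP6 also stood 7.16-fold below control (-2.84 ± 0.52, adjusted p = 0.000995), where 19.3% of probe sets were called and 10.1% were called lower; this comparison shares its control arrays with that of BMP6 alone.

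With LH alone, CYP17A1 was 1.31 ± 0.52 above control (interval 0.21 to 2.41, adjusted p = 0.898) and was not called, although all 4 same-number differences were positive, at 2.29, 0.52, 1.72 and 0.70. Leaving out LH replicate 1 reduced the difference to 0.59 (adjusted p = 0.903), leaving out control replicate 1 raised it to 1.70, and leaving out the dim-control arrays gave 0.78. LH left few marks in this fit: 0 of the 3 members and 0.0125% of all probe sets were called. Added to BMP6, LH gave a CYP17A1 difference of -0.04 ± 0.52 (interval -1.14 to 1.06, adjusted p = 1.0). That interval reaches a rise of 1.06, so it does not show that LH made no difference there. The interaction, the change from BMP6 with LH minus that without LH, was -1.35 ± 0.74 (interval -2.90 to 0.21, adjusted p = 1.0), and -0.63 without LH replicate 1. In both the test of LH+BMP6 against BMP6 and the interaction, limma called 0.0% of probe sets, with 471 and 773 at an unadjusted p under 0.05.

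CYB5A moved far less than CYP17A1. Its log2 signal was 7.07, 7.09, 7.06 and 6.99 in control replicates 1 to 4, a range of only 0.10. With LH it was 7.75, 6.99, 7.46 and 7.47, so that 3 LH arrays stood above control and replicate 2 lay at the bottom of the control range. The BMP6 arrays gave 6.63, 6.55, 6.72 and 6.89, all below control. The LH+BMP6 arrays gave 7.08, 6.59, 6.73 and 6.90, where replicate 1 reached the control range and the other 3 lay below it.

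Ordered by level, CYB5A stood at 7.42 ± 0.31 with LH, 7.05 ± 0.04 in control, 6.82 ± 0.21 with LH+BMP6 and 6.70 ± 0.15 with BMP6. No neighbours in that order differed by a called change: LH against control gave 0.37 ± 0.13 (adjusted p = 0.822), LH+BMP6 against control -0.23 ± 0.13 (adjusted p = 0.283), and LH+BMP6 against BMP6 0.13 ± 0.13 (adjusted p = 1.0). BMP6 against control gave -0.36 ± 0.13 (interval -0.64 to -0.07, adjusted p = 0.0804), with groups that did not overlap but were only 0.10 apart. This test crossed the threshold when LH replicate 2 was left out (adjusted p = 0.0296) and in a fit of only the arrays compared (0.0187). With the dim control signal as a term the difference was -0.25 (adjusted p = 0.331).

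The called change of CYB5A was LH+BMP6 against LH, a 1.51-fold fall (interval 1.24 to 1.84) of -0.59 ± 0.13 (adjusted p = 0.00447). Same-number differences were -0.66, -0.40, -0.73 and -0.57, alike in size, although the groups overlapped. CYB5A and CYP17A1 were thus 2 of 3 members called in that comparison, beside 20.3% of all probe sets. Without the dim-control arrays CYB5A changed by -0.48 (adjusted p = 0.0323). The call was lost without the 4 arrays of replicate 3 (-0.55, adjusted p = 0.0662). The interaction for CYB5A was -0.24 ± 0.19 (interval -0.64 to 0.17), not called.

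POR, the reductase, had no called change in any comparison. Its log2 signal was 8.64, 8.66, 8.74 and 8.77 in control, and 8.52, 8.69, 8.72 and 8.49 with BMP6. With LH it was 9.14, 8.97, 8.76 and 8.73, and with LH+BMP6 it was 8.57, 8.76, 8.71 and 8.72. The groups overlapped in each of the 5 comparisons between them, and LH replicates 1 and 2 were the highest arrays.

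The order of POR levels was 8.90 ± 0.19 with LH, 8.70 ± 0.07 in control, 8.69 ± 0.08 with LH+BMP6 and 8.61 ± 0.12 with BMP6, with no neighbours separated by a called change. BMP6 gave -0.10 ± 0.09 against control (interval -0.29 to 0.09, adjusted p = 0.544), which leaves room for a fall of up to 0.29 on the log2 scale. LH gave 0.20 ± 0.09 (interval 0.01 to 0.39, adjusted p = 0.914). LH+BMP6 against LH gave -0.21 ± 0.09 (interval -0.40 to -0.02, adjusted p = 0.115), and -0.13 without LH replicate 1. The interaction was -0.12 ± 0.13.

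**Figure D2:**
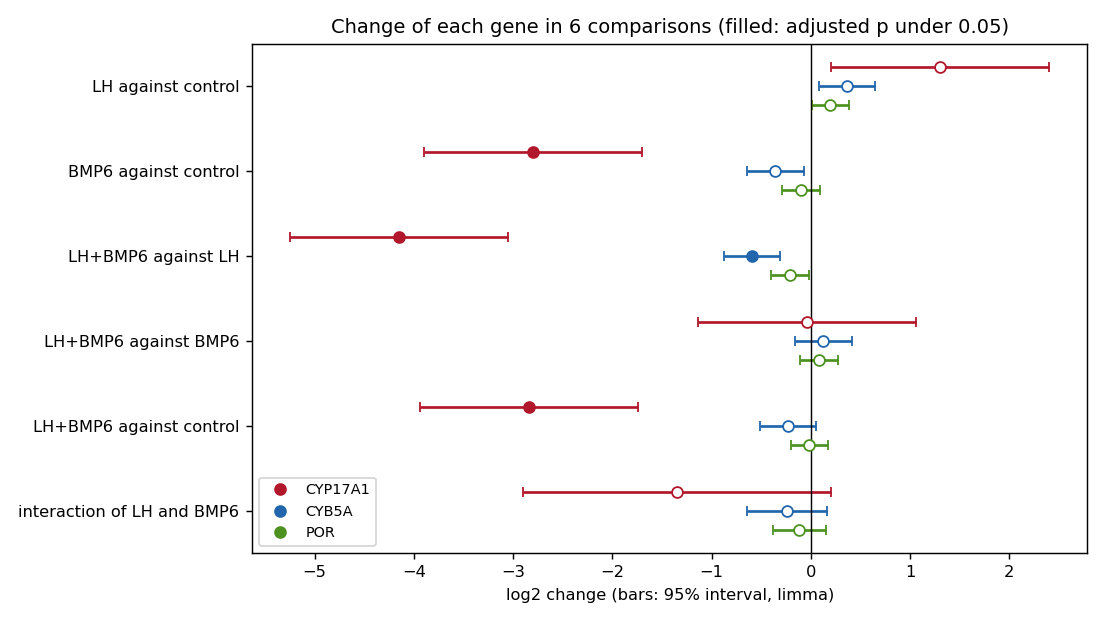
Log2 change (x axis) of CYP17A1, CYB5A and POR in the 6 comparisons (y axis); points are limma estimates from 4 arrays per group, bars are 95% intervals, and filled points have an adjusted p under 0.05. CYP17A1 is filled in the 3 comparisons of cultures with BMP6 against cultures without it, from -4.15 to -2.80, CYB5A in LH+BMP6 against LH at -0.59, and POR in none.

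Whether the genes changed by unequal amounts was tested on the difference of their log2 signals within each array, by an exact two-sided permutation test of 4 against 4 arrays. The smallest p this design allows is 0.0286, and p-values were adjusted over 15 tests. Compared with CYB5A, CYP17A1 changed by a further -2.44 (interval -4.12 to -1.24) with BMP6 against control. The further change was -3.56 (-5.72 to -2.52) for LH+BMP6 against LH and -2.61 (-4.11 to -1.48) for LH+BMP6 against control. Relative to POR, the corresponding values were -2.70 (-4.15 to -1.69), -3.94 (-6.10 to -2.52) and -2.83 (-4.31 to -1.78). Each of these 6 reached the smallest exact p, 0.0286, and none passed after adjustment (adjusted p = 0.0715). At least 9 of the 15 tests would have had to reach that p for any to pass, so the missed threshold says little about these differences. CYB5A and POR were not separated: their changes differed by -0.26 (interval -0.57 to 0.18, exact p = 0.0857) with BMP6 and by -0.38 (-0.91 to 0.49, exact p = 0.143) for LH+BMP6 against LH. With LH alone, CYP17A1 differed from CYB5A by 0.94 (exact p = 0.286) and from POR by 1.11 (exact p = 0.229).

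**Figure D3:**
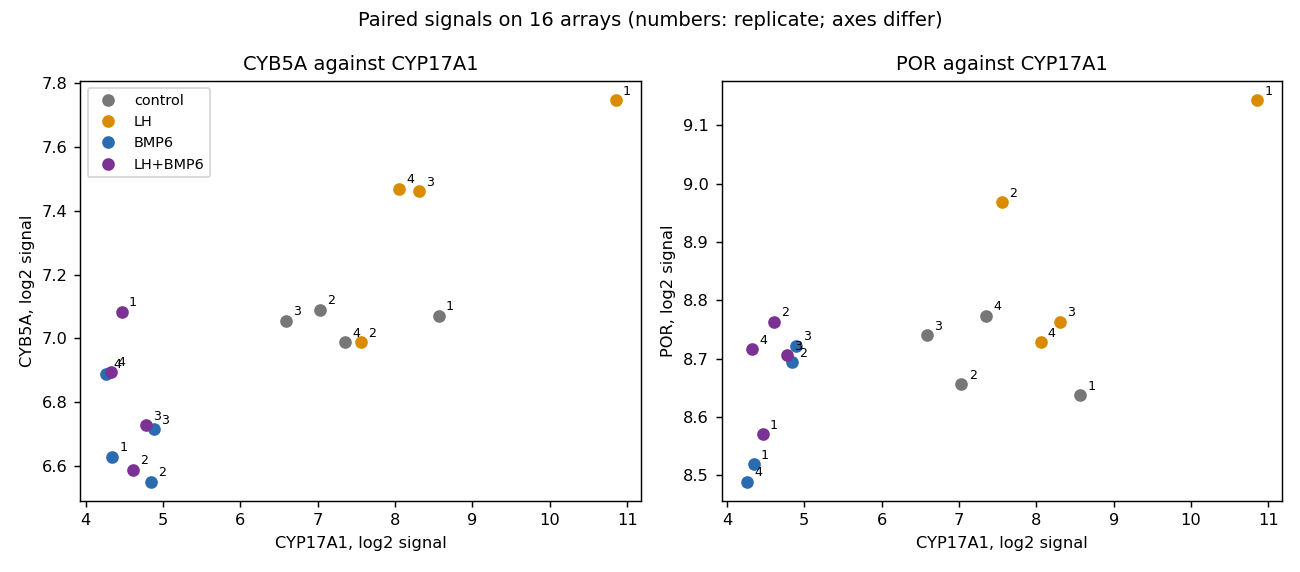
Log2 signal of CYB5A (left, y axis) and POR (right, y axis) against that of CYP17A1 (x axes) on the 16 arrays, coloured by group and numbered by replicate. The arrays with BMP6 form a column at CYP17A1 signals of 4.26 to 4.89, and LH replicate 1 is the highest point for all 3 genes.

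Across the 16 arrays, which share the 4 treatments, Pearson's r was 0.84 between CYP17A1 and CYB5A, 0.69 between CYP17A1 and POR and 0.52 between CYB5A and POR. Over the 8 arrays without BMP6 the values were 0.81, 0.66 and 0.51. LH replicate 1 carried much of this, since without it the 7 remaining arrays gave 0.51, -0.14 and -0.19. Over the 8 arrays with BMP6 they were -0.51, 0.66 and -0.40. These values are descriptions of the arrays.

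Among the other genes of steroid synthesis, HSD3B1 and CYP11A1 were among the largest called falls, and most of the rest had no called change. Of 33 listed steroid pathway genes 22 were measured; with BMP6 against control 5 fell and 0 rose (median -0.05, all named genes -0.02), and with LH+BMP6 against LH 7 fell and 0 rose (median -0.13, all genes -0.03). Over all 9155 named genes 24.8% and 27.2% were called in either direction, near the counted shares of the list, while 1422 and 1418 fell. Whether the list differs from these shares was not tested. Several listed genes lay below the lower quartile of the arrays (4.31 to 4.43) already in control, such as SULT1E1 at 2.70 ± 0.13 and AKR1C3 at 2.77 ± 0.08. At such levels little room is left to see a fall. HSD3B1, which forms the delta-4 ketosteroids, fell by 2.33 ± 0.25 on the log2 scale with BMP6 (adjusted p = 8.96e-06) and by 2.73 with LH+BMP6 against LH (adjusted p = 1.69e-06). CYP11A1, the mitochondrial enzyme that cleaves the cholesterol side chain upstream of CYP17A1, fell by 2.21 ± 0.16 (adjusted p = 1.58e-07) and by 2.61 (adjusted p = 3.69e-08). FDX1, the ferredoxin that carries electrons to CYP11A1 as POR does to CYP17A1, fell by 0.79 ± 0.12 with LH+BMP6 against LH (adjusted p = 0.000193). Its change with BMP6 alone was -0.40 ± 0.12 (adjusted p = 0.0263), a call that ended when any of control replicates 2 or 4 or BMP6 replicates 2 or 4 was left out (adjusted p up to 0.0719). STAR, which delivers cholesterol to mitochondria, fell by 3.21 ± 0.68 with LH+BMP6 against LH (adjusted p = 0.00264) and gave -1.74 ± 0.68 with BMP6 against control (adjusted p = 0.0901). HSD17B8 changed by -0.80 with BMP6 (adjusted p = 2.72e-05) and by -0.68 with LH+BMP6 against LH (adjusted p = 0.000115). AKR1C4 changed by -0.68 with BMP6 (adjusted p = 0.0101), while 0 of its 5 other probe sets were called. Without the dim-control arrays 5 and 5 genes of the list fell.

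The genes listed as other enzymes that draw electrons from POR moved in both directions. Over all named genes 24.8% were called with BMP6 against control and 27.2% with LH+BMP6 against LH. Of 35 listed microsomal P450 enzymes, heme oxygenases and squalene epoxidase 24 were measured; with BMP6 against control 5 fell and 2 rose (median -0.02), and with LH+BMP6 against LH 7 fell and 2 rose (median -0.07). The list holds PTGIS and TBXAS1, P450 enzymes that act on peroxides without a reductase, and it shares CYP19A1 and CYP21A2 with the steroid list. PTGIS is counted among the falls of both comparisons and TBXAS1 among those of LH+BMP6 against LH, so these counts include enzymes that do not use POR. CYP51A1 and SQLE, enzymes of cholesterol synthesis, fell by 1.67 ± 0.28 (adjusted p = 0.000392) and 1.53 ± 0.29 (adjusted p = 0.00122) with LH+BMP6 against LH. With BMP6 alone SQLE changed by -1.07 ± 0.29 (adjusted p = 0.0163; 0.0595 without BMP6 replicate 4) and CYP51A1 by -0.88 ± 0.28 (adjusted p = 0.0347; up to 0.1 without control replicate 1, 2 or 4 or BMP6 replicate 2, 3 or 4). CYP39A1, an oxysterol hydroxylase, rose by 0.75 ± 0.10 with BMP6 (adjusted p = 8.26e-05) and 0.70 with LH+BMP6 against LH (adjusted p = 0.000144). HMOX1, which degrades heme with electrons from POR, rose by 0.67 ± 0.09 in both (adjusted p = 5.94e-05 and 5.47e-05). Without the dim-control arrays 4 and 6 fell.

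Among genes of the cytochrome b5 system, CYB5R3 and the desaturase SCD5 fell in both comparisons. Of 17 listed genes 9 were measured; 3 fell and 0 rose with BMP6 against control (median -0.28), and 5 fell and 0 rose with LH+BMP6 against LH (median -0.78), beside the 24.8% and 27.2% of all named genes called in either direction; 3 of 9 is near that background. CYB5R3, the NADH-cytochrome b5 reductase, stood at 12.32 ± 0.21 in control and 10.94 ± 0.22 in BMP6 cultures (-1.38 ± 0.12, adjusted p = 8.91e-07), and from 12.37 ± 0.18 with LH to 11.09 ± 0.11 with LH+BMP6 (-1.29 ± 0.12, adjusted p = 1.75e-06). SCD5 and SCD, stearoyl-CoA desaturases that take electrons from cytochrome b5, fell by 1.83 ± 0.15 (adjusted p = 5.38e-07) and 1.58 ± 0.30 (adjusted p = 0.00108) with LH+BMP6 against LH. SCD5 also fell by 1.54 ± 0.15 with BMP6 alone (adjusted p = 2.75e-06), where SCD gave -0.71 ± 0.30 (adjusted p = 0.112). MSMO1, a sterol oxidase supplied by cytochrome b5, fell by 0.89 ± 0.20 (adjusted p = 0.00491) and 1.41 ± 0.20 (adjusted p = 0.000106). CYB5B, the cytochrome b5 of the outer mitochondrial membrane, gave -0.21 ± 0.15 (adjusted p = 0.419) and -0.34 ± 0.15 (adjusted p = 0.132). ELOVL6, also counted among the falls of LH+BMP6 against LH, changed by -0.78 (limma adjusted p = 0.0327), which is the list median there. Its call ended without LH replicate 1 or 2 or LH+BMP6 replicate 2, 3 or 4 (adjusted p up to 0.124). Without the dim-control arrays 3 and 4 genes of the list fell.

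**Figure D4:**
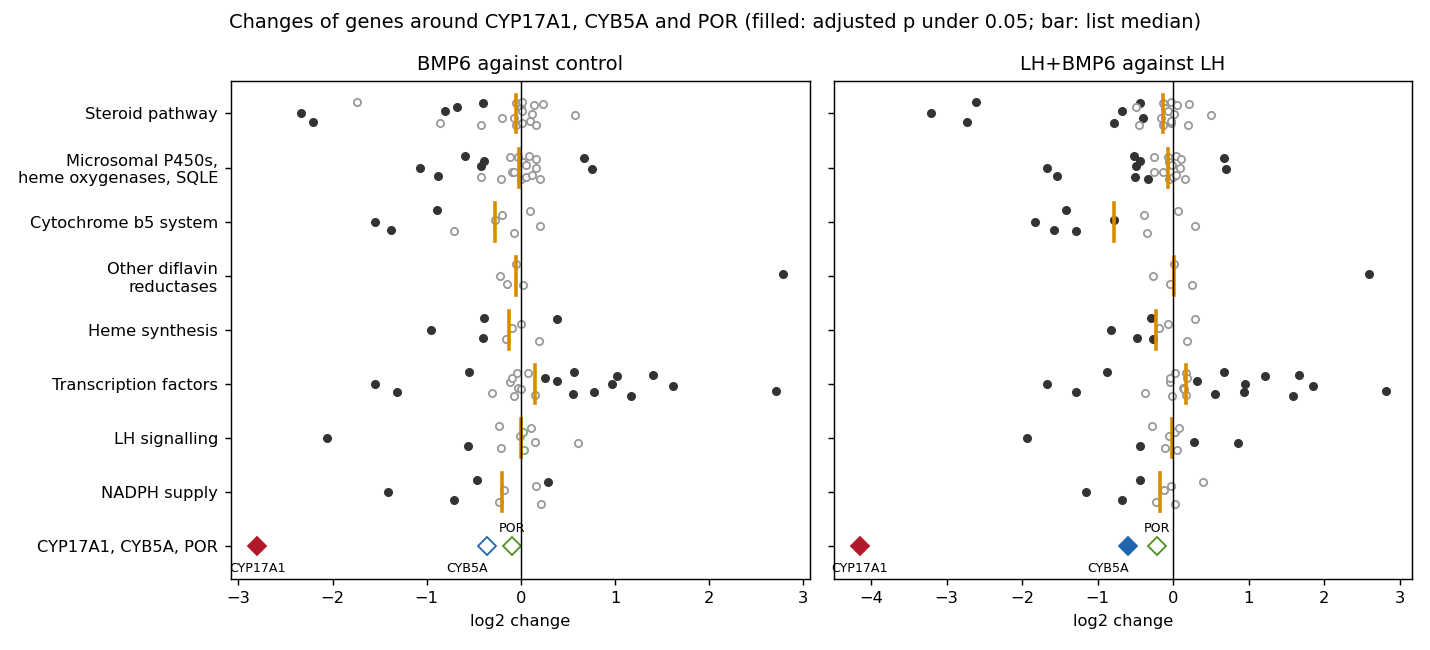
Log2 change (x axes) of each measured gene of the 8 lists and of CYP17A1, CYB5A and POR (y axes) for BMP6 against control (left) and LH+BMP6 against LH (right). Each point is 1 gene, filled where the adjusted p is under 0.05, and orange bars are list medians. CYP17A1 lies at -2.80 and -4.15, to the left of every listed gene in both panels. The theca gene INSL3, which is not on the lists and not drawn, changed further, by -5.70 (limma adjusted p = 2.69e-06) and -5.20 (adjusted p = 6.31e-06).

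Relatives and cofactors of POR changed in both directions. Their counts stand beside 24.8% of all named genes called with BMP6 against control and 27.2% with LH+BMP6 against LH. Whether these short lists differ from those shares was not tested. Of 6 listed diflavin and flavodoxin-like reductases 5 were measured, and 1 rose in each comparison. It was NOS2, the inducible nitric oxide synthase with a POR-like reductase domain, which rose by 2.79 ± 0.41 (adjusted p = 0.000155) and 2.59 (adjusted p = 0.00026); 2 of its 3 other probe sets rose as well. In heme synthesis, which makes the prosthetic group of CYP17A1 and CYB5A, 8 of 9 genes were measured. With BMP6 against control 3 fell and 1 rose, and with LH+BMP6 against LH 4 fell and 0 rose. ALAD, an early enzyme of that path, fell by 0.95 ± 0.16 (adjusted p = 0.000399) and 0.82 (adjusted p = 0.00116). The 1 heme gene that rose with BMP6 was ALAS1 (0.38, limma adjusted p = 0.0246). Its call ended without control replicate 1 or 2 or BMP6 replicate 2 or 4 (adjusted p up to 0.0856). Of 10 genes that supply NADPH 8 were measured; 3 fell and 1 rose with BMP6, and 3 fell and 0 rose with LH+BMP6 against LH. TKT, the transketolase of the pentose phosphate path, fell by 1.41 ± 0.12 (adjusted p = 8.47e-07) and 1.15 (adjusted p = 6.09e-06). The 1 NADPH gene that rose, IDH1 (0.29, adjusted p = 0.0138), had another probe set called in the opposite direction (-0.28, adjusted p = 0.00803), and its own call ended without control replicate 1 or BMP6 replicate 4 (adjusted p up to 0.0557).

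Genes listed as transcription factors linked to CYP17A1 moved in both directions, with NR5A1 lower and the ID genes higher. The ID genes are direct BMP targets that were listed with earlier results of these data known, and they add to the counts of risers below. Of 32 listed factors 23 were measured; 11 rose and 3 fell with BMP6 against control (median 0.15), and 10 rose and 3 fell with LH+BMP6 against LH (median 0.17). Over all 9155 named genes 852 rose and 1422 fell in the first comparison, and 1074 rose and 1418 fell in the second. In the first, the call of SMAD4 (0.25, limma adjusted p = 0.0444) ended when any 1 of 8 of the 16 arrays was left out (up to 0.119). CEBPB (0.56, 0.0228) lost its call without control replicate 2 or 4 or BMP6 replicate 2 (up to 0.0858). SREBF2 (-0.55, 0.0129) lost it without control replicate 2 (0.0527). Of the other probe sets of NR4A2 (3) and CREM (5), 0 were called. NR5A1, steroidogenic factor 1 and an activator of CYP17A1, fell from 9.50 in control cultures to 7.95 in BMP6 cultures (-1.55 ± 0.10, adjusted p = 2.91e-08) and from 9.70 to 8.03 with LH+BMP6 against LH (-1.67, adjusted p = 2.64e-08). Its 3 other probe sets fell too with BMP6 alone, and 2 of 3 did so in the second comparison. NR0B1, also called DAX1 and a repressor of NR5A1 activity, fell by 1.31 ± 0.20 (adjusted p = 0.000202) and 1.28 (adjusted p = 0.000221); its 1 other probe set was not called. ID1, ID2 and ID3, inhibitors of DNA binding and direct BMP targets, rose by 2.71 (adjusted p = 1.59e-07), 1.40 (adjusted p = 5.01e-05) and 1.62 (adjusted p = 1.53e-05) with BMP6; the 1 other probe set of ID1 was not called. NR4A1, an orphan nuclear receptor induced by cAMP, rose by 1.16 ± 0.19 (adjusted p = 0.000344) and 1.58 (adjusted p = 1.72e-05). GATA4, a factor that binds steroidogenic promoters, gave 0.15 ± 0.10 (adjusted p = 0.35). GATA6 rose by 0.38 with BMP6 (adjusted p = 0.00541) and by 0.32 with LH+BMP6 against LH (adjusted p = 0.0152). The second of these calls ended without LH+BMP6 replicate 1 or LH replicate 4 (adjusted p up to 0.0558).

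Among LH signalling genes the receptor gene LHCGR fell in both comparisons. Of 15 listed 10 were measured; 2 fell and 0 rose with BMP6 against control, and 2 fell and 2 rose with LH+BMP6 against LH, beside 24.8% and 27.2% of all named genes called. LHCGR, the LH receptor through which cAMP raises CYP17A1, fell by 2.06 ± 0.19 with BMP6 (adjusted p = 1.33e-06) and 1.93 with LH+BMP6 against LH (adjusted p = 2.55e-06); of its 2 other probe sets 1 was called lower and 1 was not called in each. PRKAR2B, a regulatory subunit of the cAMP-dependent kinase, was the other gene that fell, with -0.57 ± 0.14 (adjusted p = 0.00803) and -0.44 ± 0.14 (adjusted p = 0.0325). The second of these calls ended without LH replicate 1, 3 or 4 or LH+BMP6 replicate 2 or 3 (adjusted p up to 0.106), and both ended without the dim-control arrays (0.0526 and 0.0978). Both genes that rose in the second comparison, ADCY7 and PRKACB, lost the call without the dim-control arrays (adjusted p = 0.0952 and 0.0958), and then 1 gene fell in each comparison. In the test of LH against control, 0 genes of the 8 lists were called.

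The pattern of CYP17A1 over the 16 arrays was most like that of TNNT1, which encodes slow skeletal troponin T (Pearson's r = 0.99, and 0.98 without LH replicate 1). The next genes were TTC36 (0.97), KLF15, a Krüppel-like transcription factor (0.97), TOB1, an antiproliferative protein (0.96), and CYB561A3, a cytochrome b561 (0.96). Among 9154 other genes CYP11A1 ranked 53, NR5A1 58, HSD3B1 145, LHCGR 188, INSL3 520, CYB5A 668, STAR 771 and POR 1607. TNNT1 changed by -1.87 ± 0.32 with BMP6 (adjusted p = 0.000622) and -2.34 with LH+BMP6 against LH (adjusted p = 8.42e-05). These correlations follow the split by BMP6 that all the arrays share. After the group means were taken out, the genes nearest to CYP17A1 were ATP4B (0.95), TNNT1 (0.94), TOB1 (0.90), ACSM1 (0.90) and MAN2A1 (0.89), with NR5A1 at rank 130 (0.72) and CYB5A at 0.47. Without LH replicate 1 the values for CYP11A1 dropped from 0.57 to 0.08, while ATP4B stayed at 0.93 and NR5A1 at 0.61. In BMP6 cultures the mean signals of ATP4B (3.86), TNNT1 (3.83) and ACSM1 (3.50) lay below the lower quartile of the arrays, at 4.31 to 4.43.

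**Figure D5:**
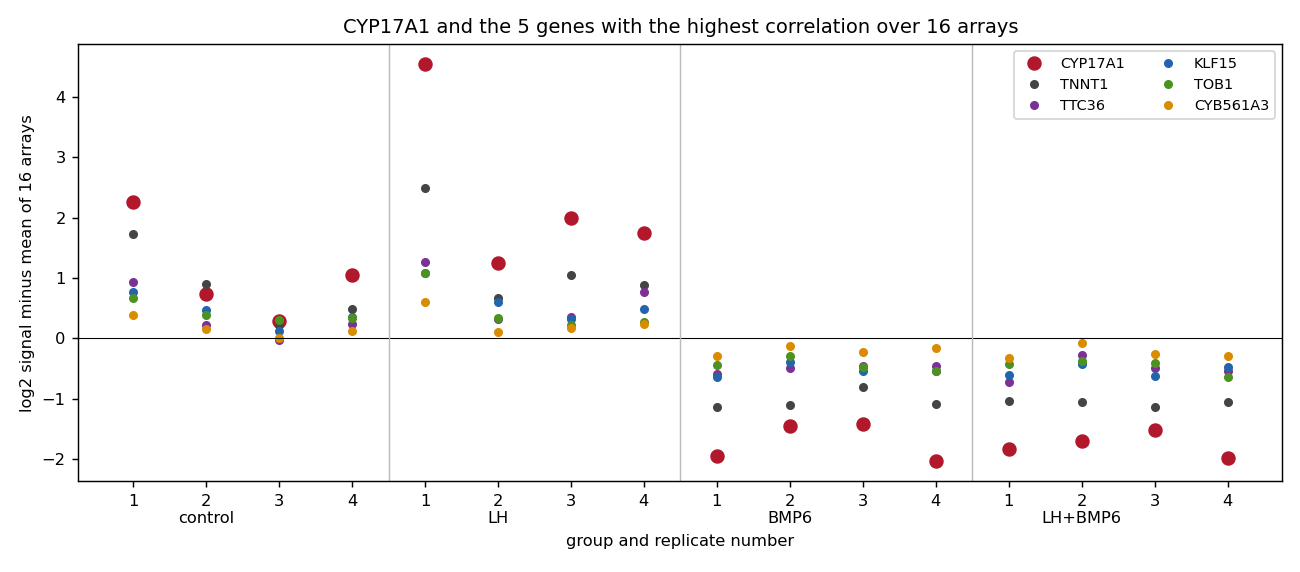
Log2 signal minus the gene's mean over 16 arrays (y axis) for CYP17A1 and the 5 genes with the highest correlation to it, on each array by group and replicate number (x axis). All 6 genes lie below their means on the 8 arrays with BMP6, and CYP17A1 covers the widest span.

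For CYB5A the genes most alike over the 16 arrays were PBXIP1 (0.92), SNX17 (0.91), HDHD2 (0.90), CITED4 (0.90) and ORC3 (0.90), with CYP17A1 at rank 76. For POR they were DNAJC3, a chaperone of the endoplasmic reticulum (0.92), SLC31A1, a copper transporter (0.88), TIMP2, a protease inhibitor (0.88), BOLA2B (0.88) and TSPAN6 (0.88), with CYP17A1 at rank 195 and CYB5A at 985. Taking out the group means left SIKE1 (0.91) nearest to CYB5A and DNAJC3 (0.88) nearest to POR, with SCARB1, a lipoprotein receptor, next for POR (0.87). CYB5A and POR themselves gave -0.15 on that measure.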

How the data were processed

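RNA from 16 theca cell cultures was hybridised to Affymetrix bovine GeneChip arrays. The log2 signals were made by the authors with the robust multi-array average (RMA) in Affymetrix Expression Console, per the submitters' processing notes; its version is not stated in the sources used. RMA draws the arrays to a common distribution, so changes are relative to the other probe sets, and it compresses low signals. The deposited values were used without further normalization or filter. Of 24128 probe sets, 112 controls were left out; 13292 of the rest had 1 gene symbol, 86 several and 10638 none. A listed gene is its probe set with the highest mean.

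The tests used limma 3.58.1 under R 4.3.3 (lmFit with 1 coefficient per group over 16 arrays, eBayes with an intensity trend), and the pipeline was tested on simulated data. Exact tests were run with numpy 2.4.6 and pandas 2.3.3 under Python 3.11.15, and plots with matplotlib 3.10.9. The members and the 8 lists were chosen with earlier results of these data known. The text names up to 4 genes per list with the largest called changes, fixed theca genes, and the 5 genes most alike to each member. CYB5B, GATA4, INHA, INHBA, HSD17B1, CDH2, SULT1E1 and AKR1C3 were singled out after their values were seen. NR0B1, NR4A1, GATA6, PTGIS, TBXAS1, ELOVL6, SMAD4, CEBPB, SREBF2, NR4A2, CREM and the leukocyte markers were also named outside those rules. Alternatives were a replicate block, other eBayes settings, only the arrays compared, quantile normalization, a filter at the 40th percentile of mean signal, and arrays left out.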

Additional observations from a re-analysis of the deposited data

How the results depend on the processing

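CYP17A1 kept its direction and its call under all 30 alternatives in each test of BMP6: from -3.17 to -2.07 for BMP6 against control (adjusted p up to 0.0215), -4.55 to -3.40 for LH+BMP6 against LH, and -3.19 to -2.11 for LH+BMP6 against control. POR was called under none of them in any comparison. CYB5A with BMP6 against control (-0.36) was called with the replicate block (adjusted p = 0.0354), with only the arrays compared (0.0187) and without LH replicate 2 (0.0296), ranged from -0.44 to -0.29 when arrays were left out, and was -0.25 (0.331) with the dim control signal as a term. For LH+BMP6 against LH, CYB5A ranged from -0.73 to -0.48 and lost its call without all of replicate 3 (-0.55, adjusted p = 0.0662). The cause was not tested.

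The number of probe sets called for LH against control was 1 with only the arrays compared, 0 when the dim-control arrays were dropped, and 0 to 6 when arrays were left out. For BMP6 against control it was 2660 without those 3 arrays, 2766 with their dim control signal as a term, and 2703 to 4590 when arrays were left out. LH+BMP6 against LH gave 2963 to 5210, and LH+BMP6 against control 2837, 2774 and 2754 to 4935 in the same settings. Settings that leave out arrays also test fewer samples.

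The replicate numbers may mark the 4 batches of ovaries, which the labels do not say array by array, and not every same-number pair correlated above 0.1 in any comparison. The mean correlation of same-number deviations from the group means was 0.16 (0.02 to 0.32) between control and LH, 0.04 (-0.11 to 0.15) between control and BMP6, 0.20 (0.09 to 0.27) between LH and LH+BMP6, 0.38 (0.08 to 0.69) between BMP6 and LH+BMP6, and 0.02 (-0.04 to 0.09) between control and LH+BMP6. For unlike numbers the means were -0.05, -0.01, -0.07, -0.12 and -0.01. With the replicate block 5202, 5706 and 5517 probe sets were called in the 3 tests of BMP6. Fitted with limma and the replicate block, the change of CYP17A1 minus that of CYB5A was -2.44 (adjusted p = 0.00146) for BMP6 against control, -3.56 (0.00019) for LH+BMP6 against LH and -2.61 (0.00104) for LH+BMP6 against control; minus that of POR it was -2.70 (0.000659), -3.94 (9.31e-05) and -2.83 (0.000604). The exact test cannot go below 0.0571 with 1 array left out, so those values carry no test. With 1 probe set per member, averaging probe sets gave no separate value. Counts of list genes without the 3 arrays, or without all of a replicate number, were added after seeing the data.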
